A study of Homo sapiens with 4 samples.

Results

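The genes described here are 9 genes of the H19 and insulin-like growth factor 2 (IGF2) axis and of the oncofetal RNA-binding proteins that act with it, chosen by name from 39306 genes with values. They are the noncoding RNA H19, the ligand IGF2, the receptors IGF1R and IGF2R, the RNA-binding proteins IGF2BP1, IGF2BP2, IGF2BP3 and LIN28B, and the chromatin protein HMGA2. Their RNA was measured in MHCC97H, a line of human liver cancer cells that is widely used, in 2 libraries of wild-type cells (the controls) and 2 libraries of cells in which a short hairpin RNA lowered HNRNPM, a nuclear RNA-binding protein that takes part in splicing. The study asked which genes depend on HNRNPM for their splicing; the values here are 1 level per gene and do not resolve isoforms. The labels name no control hairpin for the wild-type cells and do not say whether both knockdown libraries carried the same hairpin; the column headers tag the libraries NC and sh, each with a number, and explain neither the tag NC nor whether the number marks a hairpin or a replicate. They also do not say that the libraries came from separate cultures, so the p-values measure the spread between libraries, which may be technical.

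H19 and IGF2 are neighbouring imprinted genes that are active in the fetal liver and are turned down after birth. IGF2 binds IGF1R, a tyrosine kinase that signals to growth pathways, and IGF2R, the cation-independent mannose 6-phosphate receptor, which carries IGF2 and lysosomal enzymes to lysosomes. The IGF2BP proteins bind and protect messenger RNAs, LIN28B blocks maturation of the let-7 microRNAs, and HMGA2 is a well-known let-7 target; several of these genes are fetal genes that return in liver cancer.

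Reads assigned to genes numbered 18317579 and 19659106 in the control libraries, more than the 12708165 and 11498663 of the knockdown. HNRNPM itself was at 51.3 and 51.6 RPKM (a read count per exon length and library total) in the controls and at 21.8 and 20.4 RPKM in the knockdown libraries, a log2 difference of -1.35 ± 0.07 (SE; limma, adjusted p = 0.0027). Of 15 hepatocyte and hepatoma markers, 11 averaged at least 1 RPKM, led by the keratins KRT8 and KRT18, and their summed level was 948.4 and 853 RPKM in the controls against 1142 and 1184 RPKM after knockdown. ALB, the secreted albumin, was low and fell from 5.82 ± 0.658 to 1.76 ± 0.0207 RPKM (SD, n = 2; limma adjusted p = 0.00366), and the fetal marker AFP was below 0.5 RPKM in every library. The leukocyte markers, of which 3 of the 6 with values averaged at least 1 RPKM, summed to 53.6 and 65.4 RPKM in the controls and to 64.7 and 64.1 RPKM after knockdown, most of it CD68, which shares 85.8% of its exon bases with other entries, while PTPRC had 4 reads in knockdown replicate 1 and 0 in the other libraries. The 9 stromal and endothelial markers, 2 of them averaging at least 1 RPKM, summed to 10.2 and 10.9 RPKM in the controls and to 9.74 and 9.76 RPKM after knockdown, and the part of other cell types in the results below was not tested.

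Of the 9 genes, 8 had enough reads to be tested; 3 were higher after HNRNPM knockdown (H19, IGF2 and IGF2BP2), 2 were lower (IGF2R and IGF1R), and 3 did not pass the test (IGF2BP1, IGF2BP3 and HMGA2). LIN28B was not tested. The knockdown changed 24.9% of all 20221 tested genes at an adjusted p under 0.05 (limma with Benjamini-Hochberg adjustment), 11.1% higher and 13.8% lower. IGF2 would not have entered the test on its control libraries alone, so the count over tested genes is a description. The RPKM of the groups did not overlap for 6 of the 8, beside 67.6% of all tested genes. For a single gene the smallest p that exact permutation of these 4 libraries allows is 0.333, and the calls rest on the spread that limma pools across genes.

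**Figure D1:**
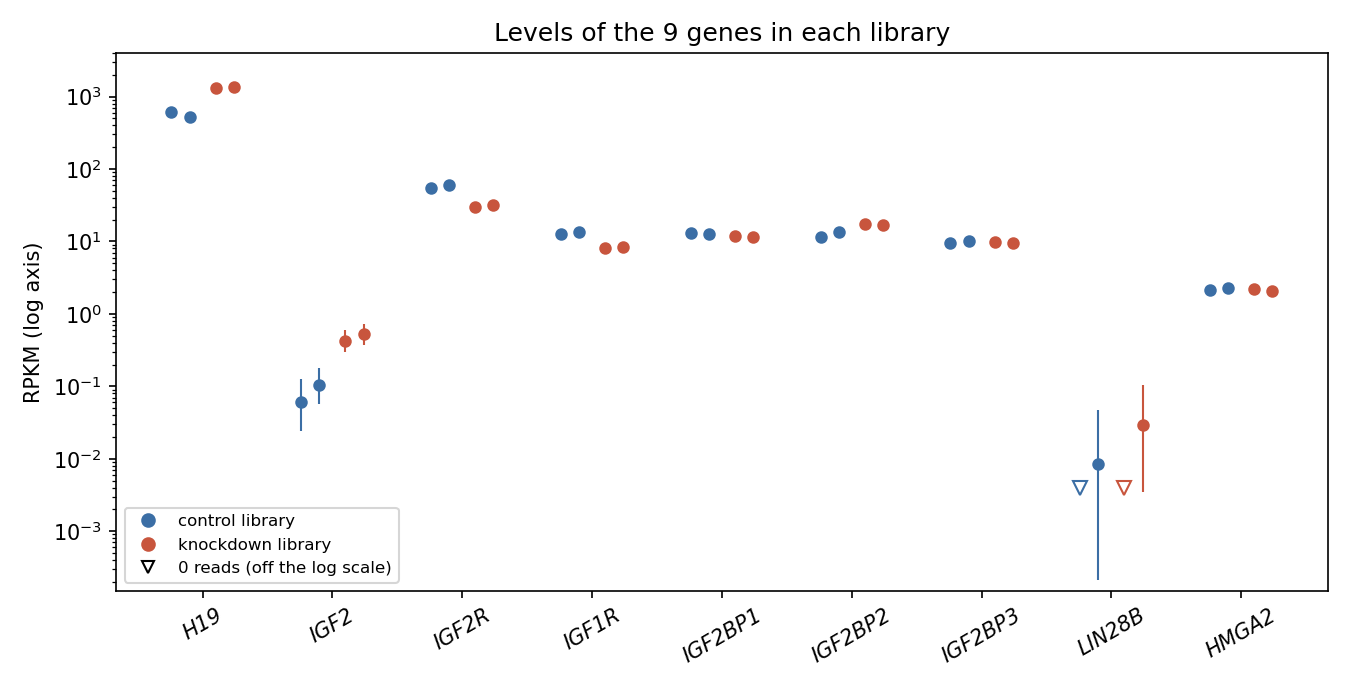
RPKM of the 9 genes in each of the 4 libraries, on a logarithmic axis. Each point is 1 library, lines are exact 95% Poisson intervals (counting error only), and open triangles mark libraries with 0 reads, which have no place on the axis. H19 lies between 528 and 1366 RPKM, IGF2R between 29.9 and 60.6 RPKM, and IGF2 and LIN28B below 1 RPKM.

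H19, a long noncoding RNA that is also the precursor of miR-675, lies at chr11:1995163-2001470 (GRCh38, minus strand) and was measured over 2825 bases of annotated exon. It was at 611 and 528 RPKM in the controls and at 1310 and 1366 RPKM in the knockdown libraries. Both knockdown libraries lay above both controls, by more than the spread within either group. The mean rose from 569 ± 58.7 to 1338 ± 39.3 RPKM (SD, n = 2), a ratio of 2.35. After division by TMM factors, which scale the libraries to each other, the fit gave 2.25-fold. Its 95% interval was 1.84 to 2.77 (log2 difference 1.17 ± 0.12 SE, limma adjusted p = 0.00505). In a bulk library, more cells with H19 and more H19 per cell cannot be told apart. Of all assigned reads, H19 took 0.173% and 0.149% in the controls and 0.37% and 0.386% with HNRNPM lowered, and its place among all genes by RPKM moved from 71 and 73 to 40 and 40. The change was larger in size than that of 97.3% of tested genes. Its exons share 140 bases with opposite-strand entries H19_1 and H19_2 that are named after it, and those entries held 2699 to 5889 reads in each library; no source used here says whether the counting used strand. H19_1 differed by a log2 of 1.03 ± 0.16 and H19_2 by 1.37 ± 0.14 (SE; limma adjusted p = 0.0122 and 0.00528).

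The mature arms of miR-675, the microRNA that is cut out of H19 RNA, are shown because they are the sequence within H19 with a known product (RefSeq, GRCh38.p14; capitals mark the seed, bases 2 to 8). The libraries do not measure mature microRNAs. The 5p arm lies at chr11:1996800-1996822 and the 3p arm at chr11:1996768-1996787, both on the minus strand within the H19 locus.
hsa-miR-675-5p: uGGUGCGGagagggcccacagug
hsa-miR-675-3p: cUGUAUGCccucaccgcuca

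IGF2, the fetal growth factor, lies at chr11:2129112-2141238 (minus strand, 6259 bases of exon). Its reads numbered 7 and 13 in the wild-type cells, or 0.0611 and 0.106 RPKM, and 34 and 38 with HNRNPM lowered, or 0.427 and 0.528 RPKM. The groups did not overlap, and the exact 95% Poisson intervals of the knockdown libraries (0.296 to 0.597 and 0.374 to 0.725 RPKM) lay above those of the controls (0.0246 to 0.126 and 0.0563 to 0.181 RPKM); these cover counting error only. The mean was 0.0834 ± 0.0315 RPKM in the controls and 0.478 ± 0.0711 RPKM after knockdown (SD, n = 2), a log2 difference of 1.62 ± 0.23 (SE; limma adjusted p = 0.00934) on a scale that understates changes at such low levels. Since IGF2 passed the filter on low reads only with the help of the group where it was high, its test is a description and no support for a rise. The ratio of the means was 5.73. The log2 difference was 0.43 with a pseudocount of 1 and 2.36 with a pseudocount of 0.01, and the call was lost when genes with few reads were not filtered out (adjusted p = 0.0913). Of the exon bases of IGF2, 23.4% are also annotated to other entries, mostly the readthrough INS-IGF2, which had 1, 2, 3 and 5 reads in control 1, control 2, knockdown 1 and knockdown 2, and no source used here says how shared reads were assigned. IGF2-AS, on the opposite strand, had at most 1 read in any library, and AC132217.4, which lies wholly within IGF2 exons, at most 3. MRPL23-AS1, a transcript beside H19, had 3 to 11 reads. H19 and IGF2 differed in level by orders of magnitude in every library.

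Both genes sit in an imprinted region, and the other genes within 500 kb on either side of the pair were read as its context. Of 42 genes with values in that window, 15 others were tested, of which 3 were higher and 6 lower, with a median log2 difference of -0.08. The higher genes were KCNQ1OT1, a noncoding RNA that silences its neighbours on the paternal chromosome (1.78 ± 0.342 to 4.96 ± 0.0967 RPKM, log2 difference 1.38 ± 0.16), KCNQ1, a potassium channel gene from whose introns it is transcribed (log2 difference 1.44 ± 0.20, from 10 and 9 reads in the controls and 25 and 26 after knockdown), and LSP1, a leukocyte cytoskeletal protein (1.06 ± 0.25; limma adjusted p = 0.0062, 0.00841 and 0.0327 in that order, SE throughout). KCNQ1 passed the filter on low reads only through its knockdown libraries, so its test supports no rise, and its call was lost without that filter. LSP1 lost its call without that filter, without control replicate 1, without control replicate 2 and without knockdown replicate 2, with adjusted p up to 0.115. Among the lower genes was CTSD, the lysosomal protease cathepsin D, which depends on mannose 6-phosphate sorting and fell from 294 ± 16.9 to 162 ± 9.08 RPKM (log2 difference -0.93 ± 0.09 SE; limma adjusted p = 0.00468). CTSD shares 52.7% of its exon bases with RP11-295K3.1 and AC068580.6, which were also lower, so these are not separate measurements. IFITM10 shares 22.2% of its exon bases with RP11-295K3.1, so it is not fully separate from them either. IFITM10, CD81-AS1 and CD81, a membrane tetraspanin, were lower by log2 differences of -0.48, -0.95 and -0.58, and each lost its call without at least control replicate 2 and knockdown replicate 1. MRPL23, the tested gene nearest to H19, was at 5.89 ± 0.519 and 6.55 ± 0.166 RPKM and did not pass the test (adjusted p = 0.557).

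**Figure D2:**
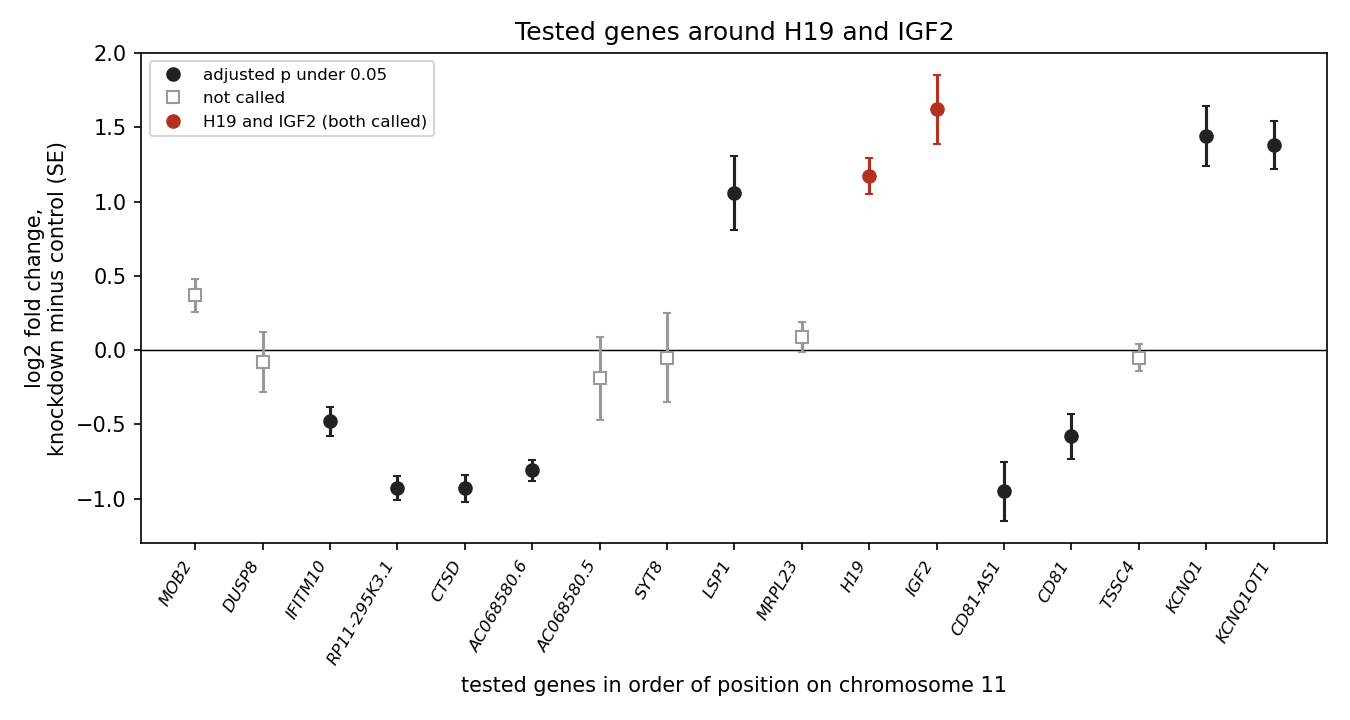
Log2 fold change (knockdown minus control, with its SE) of the tested genes within 500 kb of H19 and IGF2, in order of position along chromosome 11. H19 and IGF2 lie at 1.17 and 1.62, with KCNQ1 and KCNQ1OT1 at 1.44 and 1.38, while CTSD lies at -0.93.

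Both receptors were lower after knockdown. IGF2R, which takes up IGF2 for degradation, lies at chr6:159969099-160113507 (plus strand, 14911 bases of exon) and was at 54.9 and 60.6 RPKM in the controls against 29.9 and 32.1 RPKM after knockdown. The groups did not overlap, and the lower control lay far above the higher knockdown library. The mean fell from 57.7 ± 4.04 to 31 ± 1.62 RPKM (SD, n = 2), a ratio of 0.537. After TMM scaling the fit gave 0.515 of the control level (95% interval 0.444 to 0.597, log2 difference -0.96 ± 0.09 SE, limma adjusted p = 0.00428). AIRN, an antisense noncoding RNA that starts inside IGF2R, was at 25 and 44 reads in the controls and at 13 and 8 reads after knockdown, with a log2 difference of -0.82 ± 0.28 that did not pass the test (limma adjusted p = 0.0835).

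IGF1R, the signalling receptor, lies at chr15:98648971-98964530 (plus strand, 13509 bases of exon) and was at 12.8 and 13.7 RPKM in the controls against 8.12 and 8.35 RPKM after knockdown. Again both knockdown libraries lay below both controls. The ratio of the mean RPKM was 0.623. After TMM scaling the fit gave 0.599 of the control level (95% interval 0.52 to 0.691, log2 difference -0.74 ± 0.08 SE, limma adjusted p = 0.00585). IGF2R fell further than IGF1R in these libraries: the IGF2R to IGF1R ratio was 4.3 and 4.43 in the controls and 3.68 and 3.85 after knockdown, without overlap (difference of the log2 ratio -0.214; exact permutation p = 0.333, two-sided, the smallest that 2 against 2 allows). Both receptors have long transcripts, and long genes leaned towards lower calls: of 688 tested genes within 20% of IGF2R in exon length, 16% were lower and 5.52% higher, with a median of -0.06, and of 962 within 20% of IGF1R, 15.9% were lower and 5.82% higher, with a median of -0.07. The part of length in the results was not tested. IGF2R and IGF1R changed more in size than 94.6% and 88.7% of all tested genes.

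The promoter of IGF2R is shown because it holds several copies of a motif, CACGTG, that is also found at many lysosomal genes (RefSeq, GRCh38.p14, chr6:159968832-159969131, plus strand, 250 bases before to 50 after the start; capitals mark CACGTG, which reads the same on both strands). Of 35116 promoters of that length, 7.26% hold the motif at least once and 0.094% hold it 3 or more times, as that of IGF2R does, at 132, 74 and 28 bases before the start.
IGF2R promoter: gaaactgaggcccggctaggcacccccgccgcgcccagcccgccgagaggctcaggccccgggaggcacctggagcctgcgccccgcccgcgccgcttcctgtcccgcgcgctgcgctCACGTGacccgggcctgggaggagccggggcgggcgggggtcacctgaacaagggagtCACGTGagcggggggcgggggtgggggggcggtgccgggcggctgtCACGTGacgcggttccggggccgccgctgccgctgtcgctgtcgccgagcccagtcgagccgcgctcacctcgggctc
The IGF2BP3 promoter holds 2 copies (0.664% of promoters hold 2 or more), and those of CTSD and of 1 start of M6PR, the smaller mannose 6-phosphate receptor, hold 1 each, as does the promoter of 1 of the 2 LIN28B starts, 47 bases before it. No copy lies in these windows of H19, IGF1R or IGF2BP2, which says only that these letters are not there. Promoter sequences were matched for 6 of the 9 genes. The promoter of IGF2R is rich in GC (78.7%, with 41 CpG) beside medians of 58.7% and 14 CpG over all promoters. CACGTG was 1 of 3 motifs searched. Of the others, the IGF2R promoter holds GGGCGG 6 times and TGANTCA 0 times, beside 45% and 7.71% of all promoters that hold them. This promoter was shown for its copies of CACGTG, so their rarity is no test, and CTSD and M6PR were added from outside the 9 genes. No binding was measured in these libraries, and a match is a description.

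**Figure D3:**
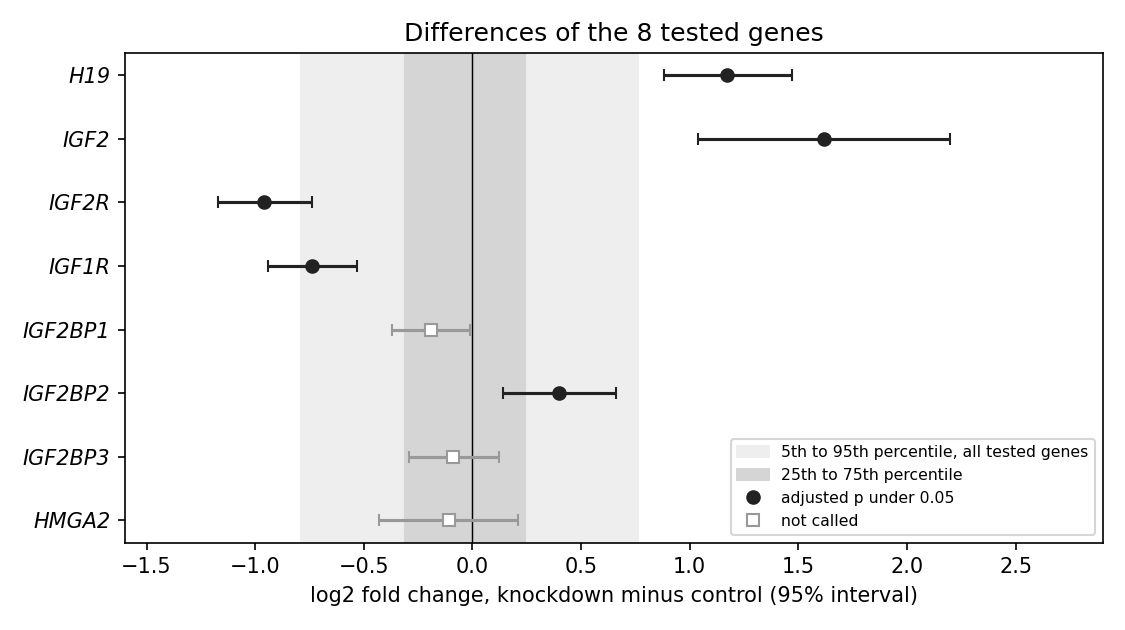
Log2 fold change (knockdown minus control) of the 8 tested genes of the set, with 95% intervals, over bands that hold all tested genes from the 5th to the 95th percentile (-0.79 to 0.76) and from the 25th to the 75th (-0.31 to 0.24). H19, IGF2 and IGF2R lie outside the wider band, and IGF2BP1, IGF2BP3 and HMGA2 lie inside the narrower one.

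The IGF2BP family is a set of RNA-binding proteins that read N6-methyladenosine and stabilise growth-related messenger RNAs; IGF2BP1 and IGF2BP3 are largely fetal, while IGF2BP2 persists in adult tissue. IGF2BP2 (chr3:185643739-185825056, minus strand) was at 11.4 and 13.5 RPKM in the controls and at 17.6 and 16.7 RPKM after knockdown. The groups did not overlap, although the controls differed from each other more than the knockdown libraries did. The ratio of the mean RPKM was 1.38. After TMM scaling the fit gave a 1.32-fold higher level (95% interval 1.11 to 1.58, log2 difference 0.40 ± 0.10 SE, limma adjusted p = 0.0417). IGF2BP2-AS1, on the opposite strand within its locus, was not called (-0.31 ± 0.25; limma adjusted p = 0.41). The IGF2BP2 call was the least stable of the 5: it was lost without control replicate 1 (log2 difference 0.28, adjusted p = 0.0848), without knockdown replicate 1 (0.39, 0.142) and without knockdown replicate 2 (0.41, 0.122).

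IGF2BP1 (chr17:48997412-49055650, plus strand) was at 13.2 and 12.7 RPKM in the controls and at 12 and 11.7 RPKM after knockdown. The groups did not overlap, but the gap was small, and the difference did not pass the test (log2 difference -0.19 ± 0.07 SE, 95% interval -0.37 to -0.01; limma adjusted p = 0.108). IGF2BP3 (chr7:23310209-23470467, minus strand) was at 9.57 and 10 RPKM in the controls and at 9.9 and 9.39 RPKM after knockdown. Its groups overlapped (log2 difference -0.09 ± 0.08 SE, 95% interval -0.29 to 0.12; limma adjusted p = 0.471), an interval that still holds a fall of 0.29 and a rise of 0.12. Of its exon bases, 17.9% are shared with MALSU1 on the opposite strand, which was at 7.4 ± 0.201 and 7.53 ± 0.241 RPKM and was not called either (adjusted p = 0.771).

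The shares of the family's members were compared within each library. IGF2BP2 made up 33.5% and 37.2% of the summed RPKM of the 3 genes in the controls and 44.5% and 44.3% after knockdown, a gain of 9.07 percentage points. IGF2BP1 made up 38.5% and 35.1% in the controls and 30.4% and 30.9% after knockdown, and IGF2BP3 28% and 27.7% against 25.1% and 24.9%. In each case the groups did not overlap, with exact permutation p = 0.333 (two-sided, n = 2 per group, the smallest this design allows). The summed level was 34.1 and 36.2 RPKM in the controls and 39.5 and 37.8 RPKM after knockdown, without overlap only in RPKM as deposited. After division by the TMM factors, 0.972 for control 2 and 1.02 for knockdown 2, the groups overlap.

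**Figure D4:**
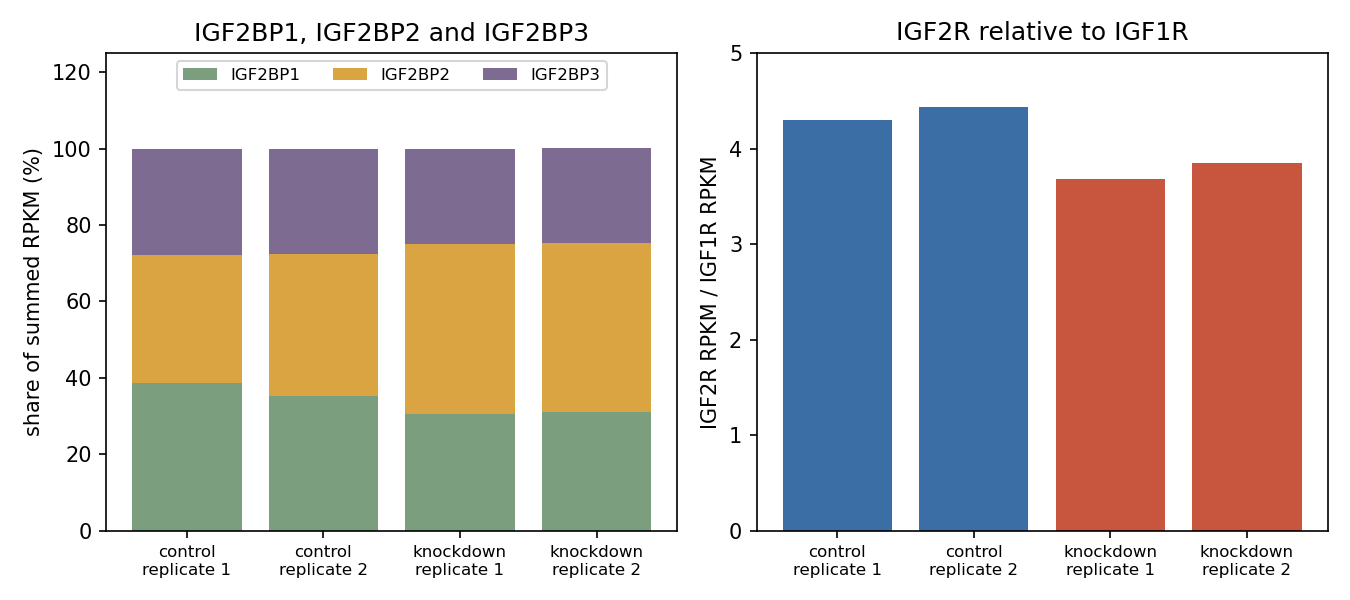
Left, share of IGF2BP1, IGF2BP2 and IGF2BP3 in their summed RPKM in each library, in percent, as stacked bars; right, ratio of IGF2R to IGF1R RPKM in each library (controls blue, knockdown red). IGF2BP2 holds 33.5% and 37.2% in the controls and 44.5% and 44.3% after knockdown, and the receptor ratio is 4.3 and 4.43 against 3.68 and 3.85.

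LIN28B (chr6:104936616-105083332, plus strand), which binds let-7 precursors, was covered by 0 reads in control 1, 1 in control 2, 0 in knockdown 1 and 2 in knockdown 2. Every library was below the 3 reads taken as the floor of detection, which corresponds to 0.0254 to 0.0435 RPKM across the libraries, and no difference was detectable at this depth. HMGA2 (chr12:65824131-65966295, plus strand), which bends DNA at AT-rich sites, was at 2.16 and 2.25 RPKM in the controls and at 2.21 and 2.05 RPKM after knockdown. The HMGA2 groups overlapped (log2 difference -0.11 ± 0.13 SE, 95% interval -0.43 to 0.21; limma adjusted p = 0.561).

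The let-7 family is shown because HMGA2, LIN28B and IGF2BP1 are its best-known targets among these genes. All 9 let-7 and miR-98 names matched in RefSeq share the seed GAGGUAG (capitals, bases 2 to 8); a few of them are printed.
hsa-let-7a-5p: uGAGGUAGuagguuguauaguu
hsa-let-7d-5p: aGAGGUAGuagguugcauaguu
hsa-let-7g-5p: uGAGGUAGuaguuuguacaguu
hsa-miR-98-5p: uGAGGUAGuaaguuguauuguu
The complement of that seed, CTACCTC, was searched on the transcript strand of 1 3′ untranslated region per gene. At least 1 match lies in 8.59% of 18930 such regions, and 4 or more in 0.0634% (12 regions). HMGA2, LIN28B and IGF2BP1 hold 4 each, IGF1R holds 2, IGF2R, IGF2BP2 and IGF2BP3 hold 1 each, and IGF2 holds 0, as does the whole H19 transcript, which says only that these letters are not in those windows. Among regions within 20% of the same length, as many matches were found in 0.107% for HMGA2, 0.248% for LIN28B, 0.595% for IGF2BP1 and 7.06% for IGF1R. HMGA2, LIN28B and IGF2BP1 were shown as known let-7 targets, so the rarity of their matches is no test.

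The sites of the 3 genes with 4 matches are given in the order of the transcript, all on the plus strand of GRCh38, with the seed match in capitals. The first and the last window lie at chr12:65963298-65963320 and chr12:65965798-65965820 for HMGA2, at chr17:49051061-49051083 and chr17:49054997-49055019 for IGF2BP1, and at chr6:105078812-105078834 and chr6:105082860-105082882 for LIN28B.
HMGA2 site 1: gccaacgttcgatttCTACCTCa
HMGA2 site 2: ccccactactcaataCTACCTCt
HMGA2 site 3: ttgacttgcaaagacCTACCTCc
HMGA2 site 4: aatcaaaacacactaCTACCTCt
IGF2BP1 site 1: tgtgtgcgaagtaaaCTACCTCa
IGF2BP1 site 2: cagcagtgctagtaaCTACCTCa
IGF2BP1 site 3: gtataaatggattaaCTACCTCa
IGF2BP1 site 4: tcacttttgttttatCTACCTCt
LIN28B site 1: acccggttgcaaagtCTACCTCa
LIN28B site 2: tactgatgatagtaaCTACCTCt
LIN28B site 3: gtttacagcaaaaggCTACCTCa
LIN28B site 4: aaatgatggtgttgaCTACCTCt
Of these genes, HMGA2 and IGF2BP1 were tested and neither passed, and their log2 differences were -0.11 and -0.19. The match nearest to the stop codon lies 21 bases after it in HMGA2 and 44 bases after it in LIN28B. A match is a description of sequence, and mature let-7 was not measured.

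**Figure D5:**
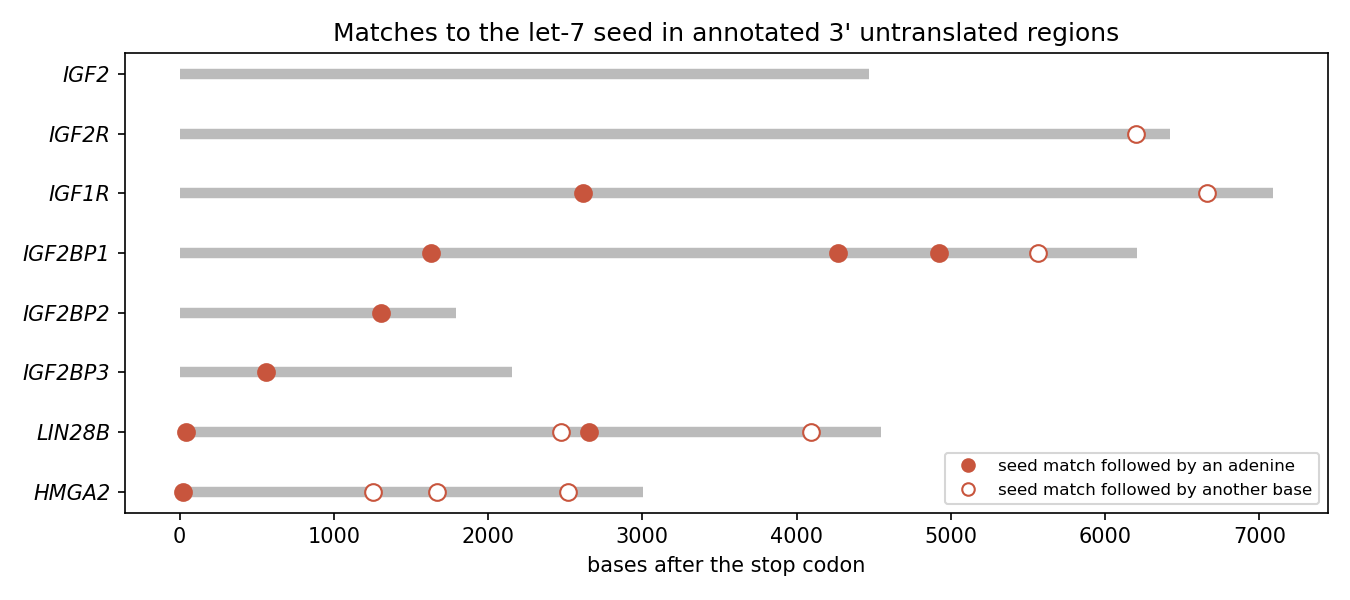
Matches to the let-7 seed along the annotated 3′ untranslated region of each protein-coding gene of the set, in bases after the stop codon; grey bars are the regions, filled circles are matches followed by an adenine and open circles are other matches. HMGA2, LIN28B and IGF2BP1 each carry 4 circles, IGF1R carries 2 and IGF2 none.

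By level per length of exon, the controls were ordered H19, IGF2R, IGF1R, IGF2BP1, IGF2BP2, IGF2BP3, HMGA2, IGF2 and LIN28B. IGF1R and IGF2BP1 did not differ beyond the spread of their libraries, and neither did IGF2BP1 and IGF2BP2; all other neighbours in that order were separate in both libraries. After knockdown the order was H19, IGF2R, IGF2BP2, IGF2BP1, IGF2BP3, IGF1R, HMGA2, IGF2 and LIN28B, and every pair of neighbours was separate in both libraries. IGF1R thus stood above the IGF2BP genes or beside them in the controls and below all 3 after knockdown. Mean H19 was 9.86 times mean IGF2R in the controls and 43.2 times after knockdown.

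The genes whose pattern over the 4 libraries lay closest to each called gene were taken by Euclidean distance of centred log2 values, among genes averaging at least 1 RPKM. For IGF2R these were RP11-217B7.2, CTSD and RP11-661A12.12 (distances 0.027, 0.037 and 0.037), with 66 genes within 0.1. IGF1R lay closest to CNTNAP3B, TMEM30A and PTDSS1 (0.016, 0.017 and 0.025), with 151 genes within 0.1, and IGF2BP2 to SULT1C2, IGSF1 and RNF168 (0.008, 0.01 and 0.015), with 88. H19 had 7 genes within 0.1, led by the small noncoding RNA copies RN7SL538P, RN7SL456P and RN7SKP36 (0.077, 0.082 and 0.086), and IGF2 had 0, the closest being RP11-169D4.2, RND1 and SPANXB1 at 0.105, 0.118 and 0.134. With 4 libraries in 2 groups, closeness mostly reflects a like fold change.

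The other genes of the pathway were read from lists, whose counts are to be set beside the 11.1% of tested genes called higher and 13.8% called lower. When 1 library was left out, fewer genes passed in all: 15.9% and 13.2% without control replicate 1 or 2, and 8.47% and 10.9% without knockdown replicate 1 or 2. Of 9 IGF binding proteins, which hold IGFs in the blood and tissue fluid, 2 were higher and 2 lower, with a median log2 difference of -0.13 beside -0.03 over all tested genes. IGFBP1, made by the liver in fasting, rose from 33.5 ± 0.76 to 90.7 ± 2.42 RPKM (SD, n = 2; log2 difference 1.37 ± 0.07 SE; limma adjusted p = 0.0027), and IGFBP3, the main carrier, from 130.5 ± 24.1 to 225.7 ± 1.15 RPKM (0.74 ± 0.14; 0.0183). IGFBP2 and IGFBPL1 were lower, by log2 differences of -0.71 ± 0.13 and -0.83 ± 0.15. Without knockdown replicate 1 or 2, IGFBP3 and IGFBP2 lost their calls, and IGFBPL1 did so without knockdown replicate 2.

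Of 10 proteases and processing genes of IGF ligands, 5 were lower and 0 higher, with a median of -0.33. FURIN, which cleaves pro-IGF2 and the IGF1R precursor, fell from 13.4 ± 1.28 to 7.35 ± 0.297 RPKM (log2 difference -0.92 ± 0.10 SE; limma adjusted p = 0.00585). HTRA1, a secreted serine protease, fell by 1.28 on the log2 scale and ADAM9, a membrane metalloprotease, by 0.59 (adjusted p = 0.0061 and 0.00696). STC2, a secreted protein, fell by 0.43 (limma adjusted p = 0.0249). Without knockdown replicate 1, without knockdown replicate 2 or without control replicate 2, 3 were lower, and without control replicate 1, 4 were lower.

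Of 13 genes of mannose 6-phosphate sorting, the route that IGF2R serves, 4 were lower and 0 higher, with a median of -0.22. M6PR fell from 44.3 ± 2.79 to 32 ± 0.768 RPKM (log2 difference -0.53 ± 0.08 SE; limma adjusted p = 0.00932). NAGPA and GNPTAB, enzymes that make the mannose 6-phosphate tag, fell by 0.84 and 0.55, and SORT1, a sorting receptor, by 0.57. Leaving out 1 library changed this count to 3, 1, 0 and 1 lower for control replicates 1 and 2 and knockdown replicates 1 and 2, so it depended on single libraries. M6PR shares 29.3% of its exon bases with PHC1.

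Among 12 tested ligands, receptors and adaptors of insulin and IGF signalling, 3 were higher and 1 lower, with a median of 0.08. GRB10, an imprinted adaptor that restrains insulin and IGF1 receptors, rose from 15.1 ± 0.44 to 31.4 ± 0.0797 RPKM (log2 difference 0.99 ± 0.07 SE; limma adjusted p = 0.00314). The insulin receptor INSR (log2 difference -0.05 ± 0.10) and the docking protein IRS1 (-0.06 ± 0.07) did not pass the test. IGF1, INS and IRS4 had at most 3 reads in any library. Of their exon bases, IGF1 shares 82.8% with HELLPAR and INS 31.7% with INS-IGF2, and how shared reads were assigned is not known. The adaptors SHC1 and SOS1 were higher by 0.52 and 0.70, and GRB14, a relative of GRB10, was lower by a log2 difference of -0.75. SHC1 lost its call without knockdown replicate 1 or 2, SOS1 without knockdown replicate 1, and GRB14 without control replicate 2 or knockdown replicate 2. In the 28 tested genes of the kinase pathway downstream (PI3K, AKT and MTOR), 4 were higher and 1 lower, with a median of 0.01; MTOR itself was lower (-0.60 ± 0.08; limma adjusted p = 0.00786), and this call was lost without knockdown replicate 1 (adjusted p up to 0.0557). The higher genes were led by the transcription factor FOXO3 (0.55 ± 0.09), the translation repressor EIF4EBP1 (0.43 ± 0.07) and the kinase AKT1 (0.32 ± 0.08). The count of higher genes fell to 2 without control replicate 1 or 2 and to 0 without knockdown replicate 1 or 2.

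Of 23 tested imprinted genes other than H19 and IGF2, 5 were higher and 1 lower, with a median of 0.22. Besides GRB10, KCNQ1OT1 and KCNQ1 (the last with the limit given above), CDKN1C, a growth-restraining cyclin-dependent kinase inhibitor, rose from 9.65 ± 0.742 to 21.6 ± 1.53 RPKM (log2 difference 1.09 ± 0.10 SE; limma adjusted p = 0.00428), and the signalling gene GNAS was higher by 0.41 ± 0.08 (0.0207). The imprinted transporter SLC22A18 was lower (-0.65 ± 0.10; limma adjusted p = 0.0114). GNAS lost its call without control replicate 2 or either knockdown library, and SLC22A18 without control replicate 2 or knockdown replicate 1. Without any 1 library, 4 to 6 of the list were higher. Genes listed as imprinting control factors have unlike roles, and among 17 tested, 7 were lower and 0 higher, with a median of -0.23. The 7 included the corepressor TRIM28 (-0.60 ± 0.07, limma adjusted p = 0.00647) and the cohesin subunit SMC1A (-0.41 ± 0.06, 0.0115). Also among them were the maintenance methyltransferase DNMT1 (-0.41 ± 0.07, 0.0126) and the methylcytosine oxidase TET3 (-0.70 ± 0.14, 0.022). Only 3 of these were lower without control replicate 1 or 2, 0 without knockdown replicate 1 and 2 without knockdown replicate 2.

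Of 15 tested ribonucleoprotein partners of the IGF2BP proteins, 3 were higher and 2 lower, with a median of 0.00. YBX1, a cold-shock protein that binds messenger RNA, rose from 162.6 ± 10.7 to 290.7 ± 9.79 RPKM (SD, n = 2; log2 difference 0.78 ± 0.08 SE; limma adjusted p = 0.00528). The double-stranded RNA-binding protein STAU1 and the RNA-binding protein FXR1 were higher by 0.41 ± 0.07 and 0.37 ± 0.08. The helicase DHX9 was lower (-0.42 ± 0.07; 0.0114), and lost its call without either knockdown library. YBX1 was the 1 higher gene left without knockdown replicate 1 or 2, when 0 of the list were lower. Among 15 tested messenger RNAs known as IGF2BP targets, 2 were higher and 4 lower, with a median of 0.11. MKI67, a proliferation marker, fell from 65.5 ± 4.01 to 42.4 ± 0.605 RPKM (log2 difference -0.69 ± 0.07 SE; limma adjusted p = 0.0056), while LDHA, lactate dehydrogenase, rose from 67.6 ± 5.72 to 113.4 ± 7.41 RPKM (0.68 ± 0.09; 0.00689) and lost its call without knockdown replicate 1. MKI67 kept its call whichever library was left out. FSCN1, an actin-bundling protein, was higher by 0.34 ± 0.06 and CD44, a hyaluronan receptor, lower by a log2 difference of -0.48 ± 0.10, and both lost their calls without either knockdown library. Over the list, 2, 2, 0 and 1 were higher and 2, 3, 1 and 1 lower without control replicates 1 and 2 and knockdown replicates 1 and 2. Of 18 tested writers, erasers and readers of N6-methyladenosine, 1 was higher, the demethylase ALKBH5 (0.36 ± 0.09), and 1 lower, the reader YTHDC2 (-0.63 ± 0.14), and neither passed without control replicate 2 or without knockdown replicate 1 or 2; YTHDC2 did not pass without control replicate 1 either.

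Of 14 tested genes of let-7 processing and LIN28 partners, 0 were higher and 2 lower, with a median of -0.23. XPO5, which exports microRNA precursors from the nucleus, fell from 6.76 ± 0.486 to 4.37 ± 0.261 RPKM (log2 difference -0.68 ± 0.10 SE; limma adjusted p = 0.011), and lost its call without knockdown replicate 1; DHX9 was the other, and without knockdown replicate 1 and 2 the list had 0 and 1 lower. DICER1 (log2 difference -0.24 ± 0.11) and DROSHA (-0.19 ± 0.08), the enzymes that cut microRNA precursors, did not pass the test, and LIN28A had 1 to 5 reads. Of 7 tested let-7 host and precursor genes, the precursor MIRLET7I (0.92 ± 0.35) and the hosts WDR82 (0.14 ± 0.07) and MIR99AHG (-0.61 ± 0.38) were not called. Lower were HUWE1 (-0.48 ± 0.07), MIRLET7DHG (-0.96 ± 0.23), MIRLET7BHG (-0.57 ± 0.15) and MIR100HG (-0.73 ± 0.20). Their limma adjusted p were 0.011, 0.0352, 0.0405 and 0.0498 in that order. MIR100HG, at 14 to 50 reads, lost its call with either other pseudocount, either other scaling, no filter or the replicate block. Over the 7 genes the median was -0.57, and 4 were lower. The count was 2 and 1 without control replicates 1 and 2 and 0 without knockdown replicate 1 or 2, and MIRLET7DHG shares 85.7% of its exon bases with RP11-2B6.2. Among 23 tested let-7 targets beyond the set, 2 were higher and 5 lower, with a median of 0.05. The matrix glycoprotein THBS1 was higher by 0.49 ± 0.07 and the cell cycle regulator E2F2 lower by a log2 difference of -0.72 ± 0.13 (SE; limma adjusted p = 0.00965 and 0.018). The receptor TGFBR1 was lower by a log2 difference of -0.61 ± 0.13 and the ubiquitin-conjugating enzyme CDC34 higher by 0.34 ± 0.07. Without a single library, 0 to 2 of the targets were higher and 0 to 1 lower. Of 16 tested chromatin partners and targets of HMGA2, 4 were higher, IGF2BP2 among them, and 2 lower, with a median of 0.26. The nucleosome-binding proteins HMGN1 and HMGN2 were higher by 0.39 ± 0.07 and 0.36 ± 0.08, and both lost their calls without control replicate 2 or either knockdown library. CCNA2, a mitotic cyclin, and CDKN2B, a cell cycle inhibitor, were lower by log2 differences of -0.38 ± 0.07 and -0.48 ± 0.10. Over the list, 3, 1, 0 and 1 were higher and 0, 1, 0 and 0 lower when the libraries were left out in the same order as above.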

How the data were processed

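RNA was extracted, depleted of ribosomal RNA and made into stranded libraries with random molecular identifiers, per the labels' protocols. The submitters' processing notes list StringTie 1.3.2, edgeR 3.12.1, Subread 1.5.1, featureCounts and Trimmomatic 0.36, with no roles. No source used here gives the aligner, the strand setting or the handling of identifiers. Those notes give mm9 as the build, but the coordinates in the files match human GRCh38: 93.8% of 26367 genes compared had the same start and end as in GENCODE. The authors deposited 1 RPKM value per gene, scaled to assigned reads. All values were whole multiples of 1 read, within 0.01, so reads were recovered for scaling and for counting intervals. No count model other than limma-voom was run.

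RPKM was divided by TMM factors (0.972 to 1.03; 30% of log ratios and 5% of mean levels trimmed) and compared between groups, with no covariate, as log2(RPKM + 0.1) in limma 3.58.1 (R 4.3.3). P-values were adjusted by Benjamini-Hochberg over the 20221 genes that reached the equivalent of 10 reads in at least 2 libraries and 15 reads in all. Calls used an adjusted p of 0.05. Residual degrees of freedom were 2, to which moderation added 3.56. On simulated data with 20162 genes tested, 55.9% of genes changed by a log2 of 1 were called, and 2.96% of calls were unchanged genes. Far fewer genes changed in the simulation than the 24.9% called here, and all its genes shared the same spread beyond counting. These shares therefore need not hold for the real libraries. Replicates correlated at 0.989 and 0.988 across genes, and libraries of different groups at 0.955 to 0.959.

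The genes, lists and tests were chosen with earlier results of these data known. In each list the text names up to 4 genes with the smallest adjusted p among those called, and for each called gene the 3 with the nearest pattern. AFP, KRT8, CD68, PTPRC, MRPL23, INSR, IRS1, IGF1, INS, IRS4, GNAS, SLC22A18, DICER1, DROSHA, LIN28A, MIRLET7I, WDR82, MIR99AHG, SPP1 and COL1A1 lie outside that rule and were chosen after their values were seen. Each gene's deposited coordinates, GENCODE transcripts (build GRCh38) and RefSeq tables gave the sequences.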

Additional observations from a re-analysis of the deposited data

How the results depend on the processing

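Over 103 values of the 8 tested genes under alternative settings (a mean of at least 1 RPKM leaves out IGF2), 97 kept their direction and their side of the threshold, 5 lost the call, 1 gained it and 0 reversed. Without a filter on low reads, 693 genes were higher and 1113 lower (4.59% of 39306 genes tested). IGF2 (log2 difference 1.62) and IGF2BP2 (0.40) were not called there. More genes enter both the pooled spread and the adjustment in that setting, and the part of each was not tested. IGF2BP1 passed with limma-voom (-0.19, adjusted p = 0.0492). Scaled to total reads only, 55.5% of calls were higher beside 44.5% with TMM, and the median of all genes was 0.0278 beside -0.0313. Without correction for length, the IGF2BP3 share differed by -1.8 percentage points.

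With 1 library left out at a time, 700 to 1531 genes were higher and 1012 to 1687 lower. The ranges of the log2 difference were 1.08 to 1.27 for H19, 1.44 to 1.81 for IGF2, -0.80 to -0.68 for IGF1R, -1.04 to -0.88 for IGF2R, -0.20 to -0.17 for IGF2BP1, 0.28 to 0.53 for IGF2BP2, -0.13 to -0.04 for IGF2BP3 and -0.14 to -0.07 for HMGA2. The shares differed by -7.85 to -4.47, 7.22 to 10.9 and -3.07 to -2.76 percentage points for IGF2BP1, IGF2BP2 and IGF2BP3, and the log2 ratio of the receptors by -0.247 to -0.181. The lone library is then assumed to vary like the others.

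Libraries of the same number deviated together with a correlation of 0.0865 over 16122 genes, so the numbers were not taken to pair them. With the replicate block, 2348 genes were higher and 2781 lower, and no call among the 8 tested genes changed. IGF2 had 7 to 38 reads per library, with the fewer reads in the deeper control libraries. LIN28B had at most 2 reads in any library, below the floor of 3 reads. The part of depth in these low counts was not tested.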

Other observations

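Other oncofetal genes of the liver, outside the set, did not move in 1 direction. Of 13 tested, 2 were higher, 2 were lower, and the median log2 difference was 0.07. CD24, a surface glycoprotein of hepatic progenitor cells, fell from 19.7 ± 2.44 to 11.9 ± 0.439 RPKM (SD, n = 2; log2 difference -0.77 ± 0.11 SE; limma adjusted p = 0.00852) and kept its call whichever library was left out, although not when genes with few reads were kept in the test. The mitotic kinase PLK1 was lower by a log2 difference of -0.58 ± 0.09, a call lost without knockdown replicate 1. KRT19, a biliary keratin, was higher by 0.42 ± 0.07, and SOX9, a progenitor transcription factor, by 0.60 ± 0.11, and both lost their calls without knockdown replicate 1 or 2. SPP1, the secreted protein osteopontin, was at 264 ± 6.29 and 289 ± 14.3 RPKM and did not pass the test (adjusted p = 0.589).

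Among the hepatocyte and hepatoma markers, ALB and FGB, which encode albumin and a fibrinogen chain, were lower by log2 differences of -1.72 ± 0.13 and -1.31 ± 0.13 (SE; limma adjusted p = 0.00366 and 0.00524), and kept their calls whichever library was left out. KRT18 was the 1 higher gene of 13 tested, beside 4 lower. Its call was lost without control replicate 2 and without knockdown replicate 1 or 2 (limma adjusted p up to 0.224), and the list had 3, 3, 2 and 4 lower without control replicates 1 and 2 and knockdown replicates 1 and 2. Of 4 tested leukocyte markers 2 were lower, CD14 and CD79A, the latter not without control replicate 2. CD14, with 29 and 27 reads in the controls and 3 and 3 after knockdown, passed the filter on low reads only through the group where it was high, so its test supports no fall; both calls were lost without that filter. Of 8 tested stromal and endothelial markers, 3 were higher, led by LUM (1.13 ± 0.0799 to 2.84 ± 0.207 RPKM), and 2 lower, PECAM1 and CDH5. Whichever library was left out, 1 was higher, and 1, 1, 0 and 1 were lower in the same order. The other higher genes, PDGFRB and COL1A1, had 6 and 5 reads in each control and passed the filter only through the knockdown libraries. PDGFRB, COL1A1 and CDH5 lost their calls without each library, and COL1A1 and CDH5 also with the replicate block. The part of these markers in the results for the H19 and IGF2 axis was not tested.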
